A study of Mus musculus with 9 samples.

Results

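The genes described here encode heat shock proteins and chaperones of the endoplasmic reticulum (ER), with the factors that control them. They were taken by symbol from the 9 library files: 38 of the 22376 genes listed in any library, of which 16 encode cytosolic chaperones and co-chaperones, 2 heat shock factors, 3 mitochondrial chaperones, 12 ER chaperones and folding enzymes, 3 sensors or factors of the ER stress response and 2 proteins of ER-associated degradation. All 38 passed the filter on low values, among 13741 genes tested.

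Messenger RNA was sequenced from macrophages grown out of the bone marrow of wild-type C57Bl/6 mice, cultured for 1 week with 10 ng/ml of macrophage colony-stimulating factor (M-CSF). After M-CSF had been washed off, wells of 50000 cells were kept for 48 h under 1 of 3 conditions, with 3 libraries each. The PD-L1 antibody libraries (1 to 3) came from wells given 100 µg/ml of antibody to PD-L1, the surface ligand of the inhibitory receptor PD-1. The isotype libraries (4 to 6) came from wells with 100 µg/ml of an antibody of matched class and no intended target, and the untreated libraries (7 to 9) from wells without antibody. The labels give neither the number of mice nor whether the wells came from separate cultures, and the spread behind every p-value may therefore be technical, since it is that between these samples alone. In bulk RNA, fewer cells of a type and less RNA per cell cannot be told apart.

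Chaperones bind unfolded protein chains and help them fold. Cytosolic Hsp70 and Hsp90 work in cycles of ATP hydrolysis that J-domain co-chaperones and nucleotide exchange factors drive, and heat shock factors bind heat shock elements in their promoters when unfolded protein builds up. In the ER, BiP (Hspa5) and GRP94 (Hsp90b1) do the corresponding work on secreted and membrane proteins, and the sensors Ern1 (IRE1), Atf6 and PERK answer an overload of unfolded protein, Ern1 by splicing the Xbp1 messenger and Atf6 by release of its own soluble domain. Xbp1 and Atf6 act through ER stress response elements (ERSE), and macrophages, which secrete cytokines and lysosomal enzymes, rely on this folding machinery.

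Promoters of several of these genes hold the textbook elements, and the windows are shown because their genes can then be set beside their levels. In RefSeq promoters of GRCm38.p6, from 250 bases before to 50 after the start, 29 of the 38 genes had an entry. Hspa8, Hspa9, Hspa13, Hsp90aa1, Hsp90ab1, Hyou1, Manf, Hsf1 and Atf6 had none. The ERSE, searched on both strands as CCAAT and CCACG with 9 bases of any kind between them, was found in 39 of 32851 promoters (0.119%), and 5 of them belong to these genes: Hspa5, Hsp90b1, Pdia6, Creld2 and Dnajc3. ERSE-II, searched as ATTGG and CCACG with 1 base between them, was in 12 promoters (0.0365%), those of Herpud1 and, after the start, Dnajb11 among them. In the following windows, 5′ to 3′ on each gene's own strand, capitals mark the element.
Hspa5, ERSE, plus strand, chr2:34771990-34772079: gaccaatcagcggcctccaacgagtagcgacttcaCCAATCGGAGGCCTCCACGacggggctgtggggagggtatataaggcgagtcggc
Hsp90b1, 2 copies of the ERSE, minus strand, chr10:86705515-86705674: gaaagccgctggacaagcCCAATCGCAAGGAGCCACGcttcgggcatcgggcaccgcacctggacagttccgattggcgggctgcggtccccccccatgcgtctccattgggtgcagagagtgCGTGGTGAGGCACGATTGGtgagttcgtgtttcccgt
Pdia6, ERSE, plus strand, chr12:17266456-17266545: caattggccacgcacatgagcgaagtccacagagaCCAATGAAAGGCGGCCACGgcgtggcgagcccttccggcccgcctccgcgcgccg
Creld2, ERSE, plus strand, chr15:88819485-88819574: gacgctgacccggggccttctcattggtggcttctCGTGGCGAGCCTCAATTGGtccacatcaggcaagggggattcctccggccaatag
Dnajc3, ERSE, plus strand, chr14:118937792-118937881: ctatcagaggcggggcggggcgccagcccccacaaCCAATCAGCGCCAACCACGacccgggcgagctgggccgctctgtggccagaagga
Herpud1, ERSE-II, plus strand, chr8:94386338-94386427: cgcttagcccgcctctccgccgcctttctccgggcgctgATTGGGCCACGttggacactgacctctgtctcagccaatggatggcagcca
In Creld2 and in the downstream copy of Hsp90b1 the ERSE reads on the opposite strand. The heat shock element, searched as GAA, TTC and GAA with 2 bases between neighbours, was in 198 promoters (0.603%), including those of Hspd1, Hspe1 and, after the start, Hsph1. Hspd1 and Hspe1 lie head to head and share the 2 overlapping copies, marked together in capitals.
Hspe1, heat shock element, plus strand, chr1:55088053-55088082: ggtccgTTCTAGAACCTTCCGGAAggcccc
A match describes the letters only and is no evidence of binding.

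Exonic read equivalents per library ran from 23554320 to 40116467. PD-L1 antibody 2 was read in lane 4 by the deposited names and the others in lane 1, and leaving it out left 19 of the 38 genes called higher and 2 called lower against isotype, in a fit that called 28.2% of all tested genes. Among the untreated libraries, untreated 7 stood apart, at -15.81 on the second principal component, beside isotype 4 to 6 (-18.68 to -3.23) and away from untreated 8 and 9 (22.77 and 22.51). Levels are given as CPM, the exonic read equivalents of a gene per 1e+06 after TMM scaling of each library, and changes as log2 fold changes of CPM + 1, which understate the change of low genes. A gene is called where limma's p, adjusted by Benjamini and Hochberg's method across the tested genes, was under 0.05.

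With the PD-L1 antibody, most of the ER folding machinery and a large share of the cytosolic heat shock genes stood higher than with the isotype antibody, while the sensor Atf6 and the ER degradation factor Herpud1 stood lower. Of the 38 genes, 22 were called higher, 3 lower and 13 not called, or 65.8% called, where 36.4% of all tested genes were called (18.2% higher and 18.2% lower). The median log2 fold change of the 38 was 0.29, beside -0.01 over all tested genes. Of the ER chaperones 10 of 12 were called higher (median 0.54), of the cytosolic chaperones 9 of 16 higher and 1 lower (median 0.28), of the mitochondrial chaperones 1 of 3 higher (median 0.19), and of the heat shock factors 1 of 2 higher. The sensors and factors of the ER stress response split into 1 higher (the factor Xbp1), 1 lower (Atf6) and 1 not called (Ern1). Of the 2 degradation genes 1 was lower. Under scaling by library totals the median of all genes shifted by -0.14, with 1565 genes higher and 4143 lower in place of 2495 and 2501. The ER chaperones then had 8 calls higher and the cytosolic ones 5 higher and 1 lower, the mitochondrial ones had none, and the median of the 38 stood 0.27 above that of all genes, against 0.31 with TMM scaling.

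Against untreated wells the same 3 PD-L1 antibody libraries enter, so this comparison shares them with the one above. Here 23 of the 38 genes were called higher and 1 lower, or 63.2%, beside 42.4% of all tested genes (22.0% higher and 20.5% lower). The median log2 fold change was 0.36, beside -0.01 over all tested genes. By compartment, 10 of 12 ER chaperones, 9 of 16 cytosolic chaperones, 1 of 3 mitochondrial chaperones and 1 of 2 heat shock factors were called higher. Of the 3 sensors or factors of the ER stress response 2 were called higher, the factor Xbp1 and, at limma adjusted p = 0.0484, the sensor Ern1. Of the 2 degradation genes 1 was called lower. Scaling by totals, which shifted the median of all genes by -0.12, gave 19 of the 38 higher and 3 lower (14.1% and 29.8% of all tested genes), and leaving out untreated 7 gave 23 higher and 2 lower (24.6% and 23.8%). In 23 of the 38 genes (60.5%) every PD-L1 antibody library lay above all 6 others, where 20.8% of all tested genes did so. In 2 of the 38, Atf6 and Herpud1, every PD-L1 antibody library lay below all 6, beside 19.2% of all tested genes. The PD-L1 antibody libraries lay wholly above the isotype ones in 24 of the 38 and wholly below in 4, where 52.1% of all tested genes did not overlap (26.0% above and 26.1% below). They lay wholly above the untreated ones in 24 and below in 3, where 51.2% did not overlap (26.3% above and 24.9% below).

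**Figure D1:**
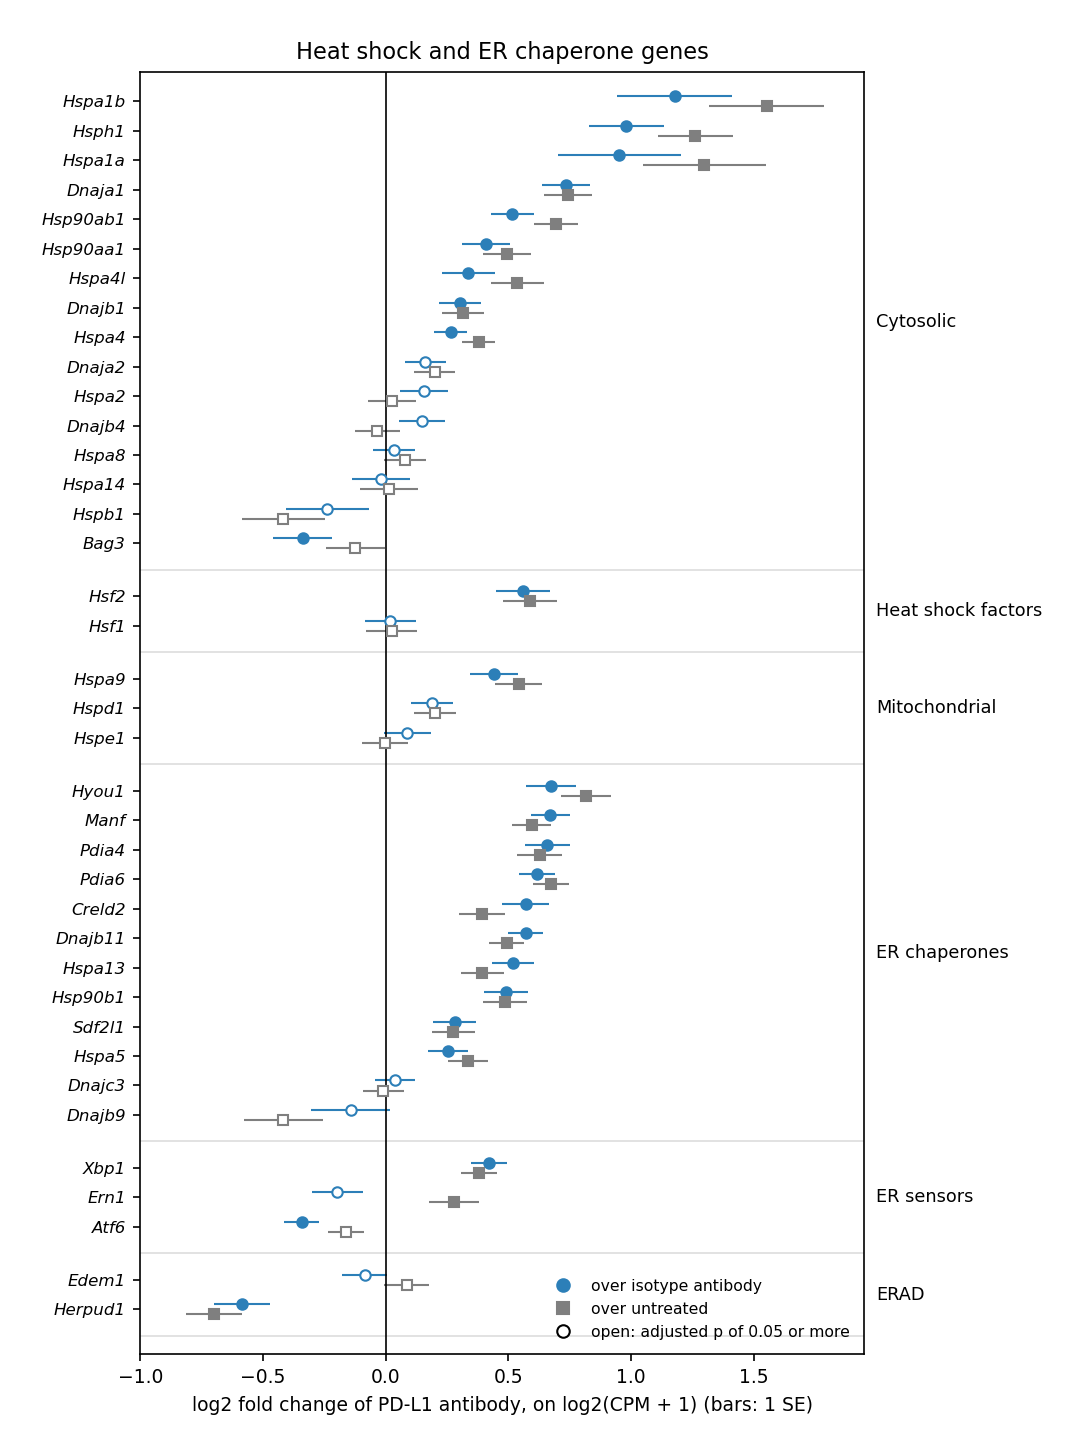
Log2 fold changes of the 38 genes on the log2(CPM + 1) scale with 1 SE, by compartment, for the PD-L1 antibody over isotype (circles) and over untreated wells (squares), filled where the limma adjusted p was under 0.05. Of the 12 ER chaperones 10 are filled to the right of 0 in both comparisons (8 of them in both under scaling by totals). Of all tested genes 18.2% were called higher over isotype and 22.0% over untreated wells (11.4% and 14.1% under scaling by totals). Herpud1 and, over isotype, Atf6 and Bag3 are filled to the left.

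The isotype antibody by itself gave no call among these genes. Over untreated wells 0 of 38 were called by limma with Benjamini-Hochberg adjustment, and likewise 0 by edgeR and 0 by DESeq2, with 2 at an unadjusted p under 0.05 in limma. Of all tested genes 0.00728% were called, all of them higher, and 0% lower. The isotype libraries lay wholly above the untreated ones in 6 of the 38 and wholly below in 3, where 13.2% of all tested genes did not overlap (7.64% above and 5.52% below). Without untreated 7 this comparison called 16.4% of all tested genes, and 5 of the 38 (13.2%) passed, a share near that of all genes. Hspa1a, Ern1, Bag3 and Hyou1 were higher in the isotype libraries (log2 fold changes 0.67, 0.58, 0.35 and 0.26, limma adjusted p = 0.0247, 0.00224, 0.032 and 0.0398), and Dnajb9 was lower (-0.48, limma adjusted p = 0.016). These 5 are named after their values were seen.

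BiP, the product of Hspa5 (chr2:34772090-34776529) and the main Hsp70 of the ER lumen, had 999, 989 and 1010.4 CPM in the PD-L1 antibody libraries, 816, 838 and 860.3 CPM in the isotype libraries and 815, 760.4 and 802 CPM in the untreated ones. All 3 PD-L1 antibody libraries were higher than the other 6, by 1.19-fold over isotype (log2 fold change 0.25, SE 0.08, limma adjusted p = 0.0296) and 1.26-fold over untreated wells (0.33, limma adjusted p = 0.00652). The call over isotype is near the threshold in the main limma fit. Leaving out any single PD-L1 antibody or isotype library ended it (limma adjusted p from 0.0544 without isotype 6 to 0.0935 without isotype 4). Scaling by totals did so too (log2 fold change 0.08, limma adjusted p = 0.491). Of 23 alternatives 10 lost the call and 13 kept it. The edgeR, DESeq2 and limma-voom fits on exonic read equivalents of all 9 libraries were among those that kept it. Over untreated wells it was lost under scaling by totals (0.18, limma adjusted p = 0.0951).

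GRP94, the Hsp90 of the ER (Hsp90b1, chr10:86690841-86705444), had a larger log2 fold change. Its levels were 470.3, 511 and 498 CPM in PD-L1 antibody libraries, 337, 354 and 360.2 CPM with isotype and 314, 365 and 379 CPM without antibody, and the PD-L1 antibody libraries were the highest 3 of the 9. The log2 fold change was 0.49 (SE 0.09, limma adjusted p = 0.00126) over isotype and 0.49 (limma adjusted p = 0.00117) over untreated wells. Exons of other genes overlap 632 of its 4032 annotated exonic bases, so a part of its reads is uncertain in origin. Hyou1 (GRP170), a nucleotide exchange factor of BiP, had 193, 183 and 213 CPM in PD-L1 antibody libraries, 121, 121 and 124 CPM with isotype and 131, 99.8 and 104 CPM without antibody. It had the largest log2 fold change of the ER chaperones over isotype, 0.68 (SE 0.10, limma adjusted p = 0.000415), and 0.82 (limma adjusted p = 9.94e-05) over untreated wells. Hspa13, a microsomal Hsp70 relative, had 48.9, 52.1 and 48.5 CPM in the PD-L1 antibody libraries against 33.1, 34.5 and 35.8 CPM in isotype and 33.7, 40.0 and 39.5 CPM in untreated ones. Here too the PD-L1 antibody libraries lay above the other 6, with log2 fold changes of 0.52 (SE 0.09, limma adjusted p = 0.00079) and 0.39 (limma adjusted p = 0.00386).

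Of the 3 J-domain partners of BiP in the set, Dnajb11 (ERdj3) alone was called. It had 168, 160.5 and 172 CPM in PD-L1 antibody libraries, 118, 106 and 112 CPM with isotype and 121, 117 and 117 CPM untreated, a log2 change of 0.57 (SE 0.07, limma adjusted p = 9.49e-05) over isotype and 0.49 (limma adjusted p = 0.000241) over untreated wells. Dnajc3 (p58IPK), whose promoter holds an ERSE, was not called, with log2 fold changes of 0.04 and -0.01 (limma adjusted p = 0.756 and 0.938), and its libraries ranged from 86.1 to 92.5 CPM in PD-L1 antibody libraries, 83.9 to 90.6 CPM with isotype and 81.7 to 96.8 CPM untreated. Dnajb9 (ERdj4), a partner known to hold Ern1 inactive, ranged from 33.1 to 38.04 CPM in PD-L1 antibody libraries, 34.8 to 46.0 CPM with isotype and 36.5 to 58.9 CPM untreated. It was not called in either comparison (log2 fold changes -0.14 and -0.42, limma adjusted p = 0.53 and 0.0577), but over untreated wells it passed, as lower, in 6 of 23 alternatives. These were limma without untreated 7 (-0.62, adjusted p = 0.000775), with scaling by totals (0.0102) or upper quartiles (0.0254) or with a filter of 5 CPM (0.0368), and edgeR (0.0428) and DESeq2 (0.0265) on exonic read equivalents.

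The protein disulfide isomerases Pdia4 and Pdia6, which form and shuffle disulfide bonds, were both higher. Pdia6, with an ERSE upstream, had 176, 190.4 and 200.4 CPM in PD-L1 antibody libraries, 118, 123 and 127 CPM with isotype and 116, 121 and 117 CPM untreated. This gave log2 fold changes of 0.62 (SE 0.07, limma adjusted p = 7.35e-05) and 0.67 (limma adjusted p = 3.65e-05). Pdia4 had 128, 124 and 145 CPM in PD-L1 antibody libraries, 84.3, 79.7 and 85.8 CPM with isotype and 75.5, 89.8 and 90.7 CPM untreated, and changed by 0.66 (SE 0.09, limma adjusted p = 0.000228) and 0.63 (limma adjusted p = 0.00028). In both genes the lowest PD-L1 antibody library lay above the highest of the other 6.

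Manf, Creld2 and Sdf2l1, smaller ER proteins, were also called higher. Manf, a secreted ER protein that binds BiP, had 92.2, 98.6 and 95.4 CPM with the PD-L1 antibody against 55.4, 61.4 and 62.0 CPM with isotype and 58.2, 64.5 and 66.1 CPM untreated. Its log2 fold change was 0.67 (SE 0.08, limma adjusted p = 7.03e-05) over isotype and 0.59 (limma adjusted p = 0.000153) over untreated wells. Creld2, an ER-resident protein with an ERSE upstream, had 30.2, 29.8 and 36.9 CPM in PD-L1 antibody libraries, 21.5, 21.1 and 21.5 CPM with isotype and 23.6, 24.8 and 24.3 CPM untreated. PD-L1 antibody 3 was its highest library, and the log2 fold changes were 0.57 (SE 0.10, limma adjusted p = 0.000786) and 0.39 (limma adjusted p = 0.00668). Sdf2l1, a partner of ERdj3, had 94.2, 96.7 and 109 CPM in PD-L1 antibody libraries, 80.6, 88.6 and 76.9 CPM with isotype and 88.8, 80.6 and 77.6 CPM untreated. Its smaller changes of 0.28 (SE 0.09, limma adjusted p = 0.028) and 0.28 (limma adjusted p = 0.0266) depended on single libraries. Over isotype the Sdf2l1 call was lost without PD-L1 antibody 2 or 3 or isotype 4 or 6 (limma adjusted p = 0.0525, 0.107, 0.0807 and 0.103), and over untreated wells without PD-L1 antibody 3 or untreated 8 or 9 (0.101, 0.0822 and 0.101). Scaling by totals ended both (0.382 and 0.285).

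Xbp1 and Atf6, which are among the transcription factors of the ER stress response, moved in opposite directions over isotype. Xbp1 had 182, 167 and 179 CPM in PD-L1 antibody libraries, 124, 141 and 128 CPM with isotype and 133, 133 and 137 CPM untreated, a log2 change of 0.42 (SE 0.07, limma adjusted p = 0.0011) over isotype and 0.38 (limma adjusted p = 0.00181) over untreated wells. Atf6, which is itself a membrane-bound factor freed by proteases, had 129, 137 and 133 CPM in PD-L1 antibody libraries, 165, 163 and 179 CPM with isotype and 156, 146 and 145 CPM untreated. Its PD-L1 antibody libraries were the lowest 3 of the 9, with a log2 change of -0.34 (SE 0.07, limma adjusted p = 0.00329) over isotype. Over untreated wells the change of -0.16 was not called (limma adjusted p = 0.0921), though it passed under scaling by totals or upper quartiles (-0.31 and -0.24, limma adjusted p = 0.00836 and 0.021).

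Ern1, the kinase and endonuclease that splices Xbp1, had 38.4, 39.7 and 46.1 CPM in PD-L1 antibody libraries, 46.8, 47.5 and 48.1 CPM with isotype and 39.1, 31.5 and 31.5 CPM untreated. The PD-L1 antibody libraries lay below isotype, above untreated 8 and 9, and on both sides of untreated 7. The log2 change of -0.20 (SE 0.10) over isotype was not called (limma adjusted p = 0.163) except under scaling by totals (-0.37, adjusted p = 0.0203). The change of 0.28 over untreated wells was called at 0.0484 and is fragile: 16 of 23 alternatives lost it, among them 8 of the 9 that leave out 1 library, with limma adjusted p from 0.0537 without PD-L1 antibody 1 to 0.172 without PD-L1 antibody 3.

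The Xbp1 messenger is spliced by removal of 26 bases, and both forms are listed, at 2247 and 2221 exonic bases. Coverage of the 26 bases was 2.07, 1.89 and 1.97 times that of the spliced form in the PD-L1 antibody libraries, 2.09, 1.80 and 1.98 times in isotype libraries and 2.03, 1.70 and 1.91 times in untreated ones. The groups overlapped, and the mean ratios of 1.98 ± 0.09 with the PD-L1 antibody, 1.96 ± 0.15 with isotype and 1.88 ± 0.17 untreated (SD, n = 3 each) differed by 0.02 between PD-L1 antibody and isotype and by 0.10 between PD-L1 antibody and untreated (two-sided exact permutation p = 1.0 and 0.5, the smallest possible being 0.1). A ratio above 1 cannot be a share of unspliced messenger, so no spliced share is given. The ratio therefore does not measure splicing, and these p-values cannot say whether splicing differed between the groups.

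Of the degradation genes, Herpud1 (chr8:94386500-94395358), a membrane component of the Hrd1 ubiquitin ligase complex with ERSE-II in its promoter, stood lower with the PD-L1 antibody. It had 23.9, 26.0 and 30.2 CPM in PD-L1 antibody libraries, 43.3, 43.9 and 34.6 CPM with isotype and 41.6, 45.7 and 44.3 CPM untreated. The log2 fold change was -0.59 (SE 0.11, limma adjusted p = 0.00205) over isotype and -0.70 (limma adjusted p = 0.000559) over untreated wells. All 3 PD-L1 antibody libraries were below the other 6. Both calls were kept under every one of the 23 alternatives. Dnajb11, the other of these genes with an ERSE-II, was called higher, but its match lies after the start and that of Herpud1 before it. Edem1, which trims mannose from misfolded glycoproteins, was not called and ranged from 291 to 332 CPM in PD-L1 antibody libraries, 315 to 353 CPM with isotype and 279 to 330.1 CPM untreated.

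**Figure D2:**
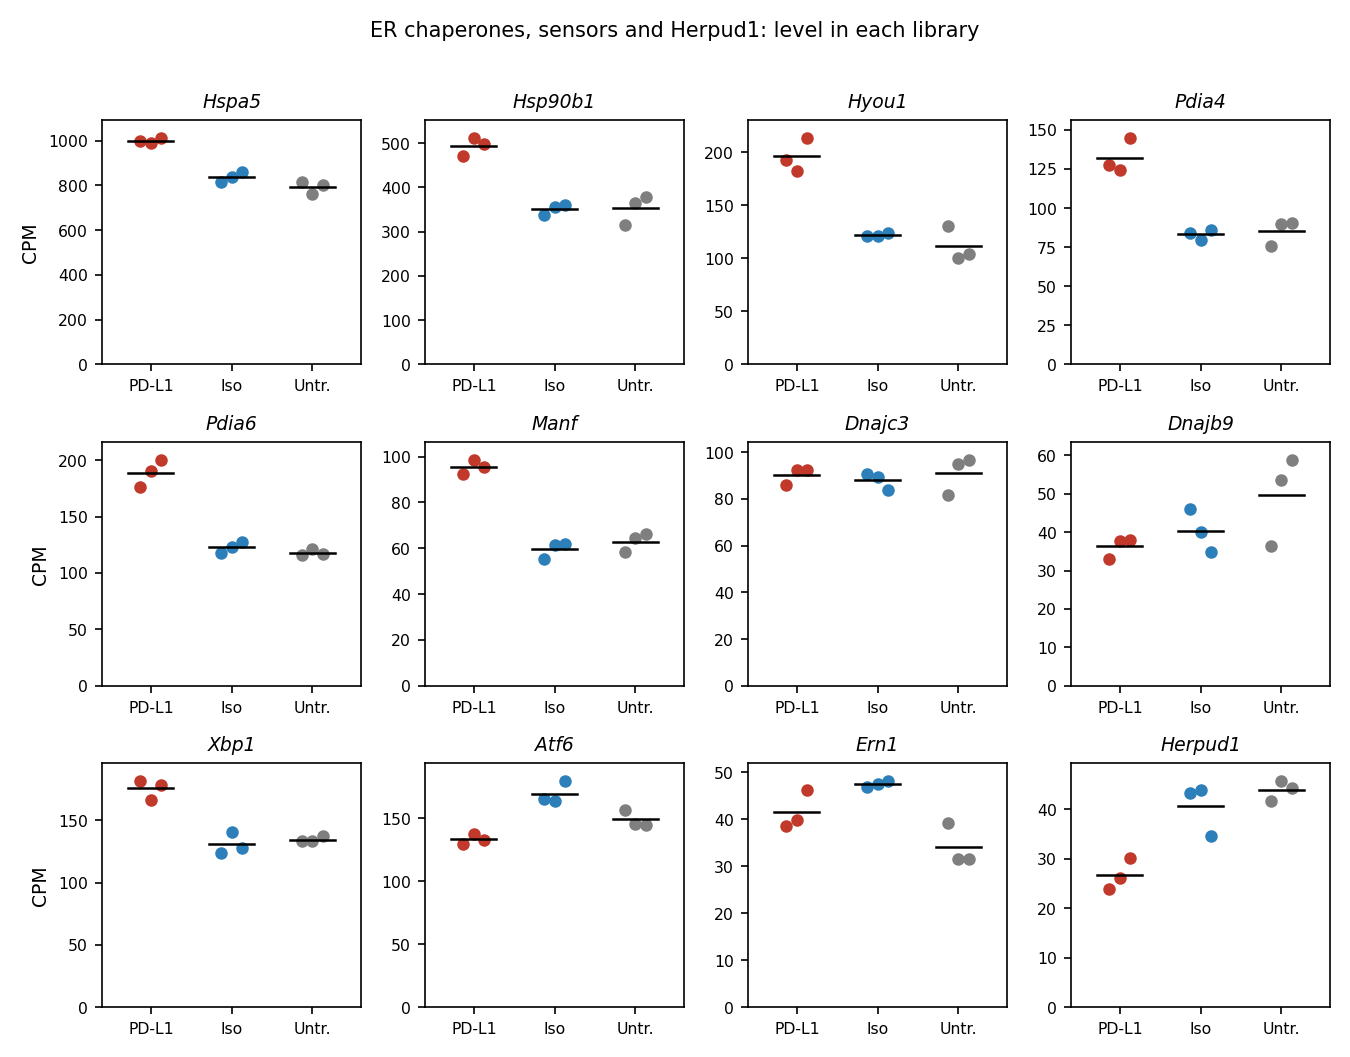
CPM in each library of 12 ER genes, on linear axes from 0, with PD-L1 antibody, isotype and untreated libraries from left to right and the mean of 3 as a bar. Hsp90b1, Hyou1, Pdia4, Pdia6, Manf and Xbp1 have their 3 PD-L1 antibody libraries above the other 6, Atf6 and Herpud1 have them below, and Dnajc3 and Dnajb9 overlap.

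In the cytosol, the stress-inducible Hsp70 genes Hspa1a and Hspa1b were, with Hsph1, the 3 genes of the 38 with the largest log2 fold changes in both comparisons. Hspa1b (chr17:34956429-34959238) had 29.6, 28.5 and 41.1 CPM in PD-L1 antibody libraries, 12.0, 15.1 and 14.6 CPM with isotype and 15.2, 11.0 and 6.72 CPM untreated. Its log2 fold change was 1.18 (SE 0.23, limma adjusted p = 0.00238) over isotype and 1.55 (limma adjusted p = 0.000343) over untreated wells. Hspa1a (chr17:34969359-34972156), its neighbour, had 27.9, 26.4 and 35.9 CPM in PD-L1 antibody libraries, 13.3, 15.9 and 15.7 CPM with isotype and 18.5, 11.3 and 7.17 CPM untreated, with changes of 0.95 (SE 0.25, limma adjusted p = 0.0119) and 1.30 (limma adjusted p = 0.00175). The coding sequences of the pair agree in 1919 bases (99.5%), so the split of reads between them is uncertain. Exons of Gm20481 also overlap 564 of the 2967 annotated exonic bases of Hspa1a, whose reads are in part uncertain in origin. Their sum was 57.5, 54.9 and 77.1 CPM in PD-L1 antibody libraries, 25.4, 31.0 and 30.3 CPM with isotype and 33.7, 22.4 and 13.9 CPM untreated, and the PD-L1 antibody libraries were above all others. Without PD-L1 antibody 3, the highest library, Hspa1a was just above the threshold over isotype (log2 fold change 0.82, limma adjusted p = 0.0522).

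The Hsp110 family, nucleotide exchange factors of Hsp70, were all higher. Hsph1 (chr5:149616845-149636315) had 61.8, 55.3 and 51.4 CPM in PD-L1 antibody libraries, 27.4, 23.0 and 34.4 CPM with isotype and 27.2, 19.5 and 22.3 CPM untreated. It was 1.99-fold higher than with isotype (log2 fold change 0.98, SE 0.15, limma adjusted p = 0.000473) and 2.44-fold higher than untreated (1.26, limma adjusted p = 7.34e-05). Hspa4 had 155, 154 and 153 CPM in PD-L1 antibody libraries, 128, 122 and 134 CPM with isotype and 117, 116 and 121 CPM untreated, a small difference of 0.27 (SE 0.07, limma adjusted p = 0.00943) and 0.38 (limma adjusted p = 0.000978) on the log2 scale. Scaling by totals ended the Hspa4 call over isotype (0.09, limma adjusted p = 0.319). Hspa4l, at 24.9, 21.3 and 21.5 CPM in PD-L1 antibody libraries, 15.5, 18.0 and 19.6 CPM with isotype and 15.4, 15.0 and 15.2 CPM untreated, changed by 0.34 (SE 0.11, limma adjusted p = 0.0293) and 0.54 (limma adjusted p = 0.00214). Its call over isotype needed PD-L1 antibody 1 (limma adjusted p = 0.124 without it), isotype 4 (0.123) and isotype 5 (0.0671), and it was lost under scaling by totals (0.251).

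Both cytosolic Hsp90 genes were higher, the constitutive Hsp90ab1 more than the inducible Hsp90aa1 in these values. Hsp90ab1 had 1225, 1165 and 1174 CPM in PD-L1 antibody libraries, 828, 801 and 861 CPM with isotype and 796, 711 and 696 CPM untreated. The 3 PD-L1 antibody libraries exceeded every other one, with log2 fold changes of 0.52 (SE 0.09, limma adjusted p = 0.000952) and 0.70 (limma adjusted p = 0.000112). Hsp90aa1 had 208, 208 and 194 CPM in PD-L1 antibody libraries, 145, 138 and 178 CPM with isotype and 150.2, 145 and 137 CPM untreated. Isotype 6 came closest to the PD-L1 antibody libraries, and the changes were 0.41 (SE 0.10, limma adjusted p = 0.00662) and 0.49 (limma adjusted p = 0.00187). Under scaling by totals Hsp90aa1 was not called over isotype (0.23, limma adjusted p = 0.0978). Whether their responses differ was not tested.

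Hspa8, the constitutive Hsc70, was not called in either comparison. It had 1192, 1126 and 1113 CPM in PD-L1 antibody libraries, 1145, 1086 and 1119.9 CPM with isotype and 1056, 1089.6 and 1101 CPM untreated. The log2 fold changes of 0.03 and 0.08 (SE 0.09) had limma adjusted p = 0.796 and 0.487. The PD-L1 antibody libraries overlapped the isotype ones and lay narrowly above the untreated ones. Of the J-domain partners, Dnaja1 had 125, 132 and 119 CPM in PD-L1 antibody libraries, 78.2, 65.0 and 82.4 CPM with isotype and 70.1, 72.9 and 80.3 CPM untreated, and log2 fold changes of 0.73 (SE 0.10, limma adjusted p = 0.000168) and 0.74 (limma adjusted p = 0.000136). Dnajb1, an inducible partner of Hsp70, had 59.6, 60.1 and 59.9 CPM in PD-L1 antibody libraries, 52.2, 50.9 and 42.5 CPM with isotype and 47.9, 48.2 and 47.7 CPM untreated. Its smaller changes were 0.30 (SE 0.09, limma adjusted p = 0.0169) and 0.32 (limma adjusted p = 0.012). The Dnajb1 call over isotype was lost without PD-L1 antibody 2 or isotype 6 (limma adjusted p = 0.0509 and 0.0611), and scaling by totals ended both calls (0.237 and 0.121).

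The remaining cytosolic genes gave 1 call in the pair of comparisons. Bag3, a co-chaperone that links Hsp70 to autophagy, was called lower over isotype (log2 fold change -0.34, limma adjusted p = 0.0476) and was named because it is 1 of the 3 lower calls, after its values were seen. It ranged from 59.9 to 64.4 CPM in PD-L1 antibody libraries, 69.1 to 86.3 CPM with isotype and 58.3 to 81.4 CPM untreated. Its call was lost in 10 of 23 alternatives, including without PD-L1 antibody 1, 2 or 3 (limma adjusted p = 0.13, 0.108 and 0.0754), isotype 5 or 6 (0.133 and 0.162) or untreated 8 (0.0574), and it was not called over untreated wells (0.438). Hspa2, Hspa14, Dnaja2 and Dnajb4, 1 Hsp70 known for its testis expression, 1 of the ribosome and 2 J-domain proteins, had log2 fold changes from -0.02 to 0.16 over isotype and from -0.03 to 0.20 over untreated wells, none called. Without PD-L1 antibody 3, Dnaja2 passed in both (0.24 and 0.28, limma adjusted p = 0.0472 and 0.0226), and with the longest transcript Hspa14 passed over untreated wells (0.31, limma adjusted p = 0.0381). Hspb1, the small heat shock protein Hsp27, was the lowest of the 38, at 0.252 to 0.366 CPM in PD-L1 antibody libraries, 0.317 to 0.680 CPM with isotype and 0.37 to 1.01 CPM untreated. It was not called, but passed over untreated wells without untreated 8 (-0.59, limma adjusted p = 0.0151).

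Between the heat shock factors, Hsf1, the main activator of inducible chaperone genes, had 21.7, 23.7 and 27.6 CPM in PD-L1 antibody libraries, 24.8, 23.5 and 23.4 CPM with isotype and 25.9, 22.0 and 23.6 CPM untreated. Its groups overlapped, and it was not called (log2 fold changes 0.02 and 0.02, SE 0.10, limma adjusted p = 0.908 and 0.871). Hsf2 had 15.9, 14.8 and 17.8 CPM in PD-L1 antibody libraries, 10.4, 11.0 and 10.4 CPM with isotype and 9.26, 10.9 and 11.0 CPM untreated. The 3 PD-L1 antibody libraries were the highest, with log2 fold changes of 0.56 (SE 0.11, limma adjusted p = 0.00222) and 0.59 (limma adjusted p = 0.0014). Activity of Hsf1 is set largely at the protein level, which these libraries do not measure.

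Of the mitochondrial chaperones, the Hsp70 Hspa9 (mortalin) was called higher. It had 207, 222 and 194 CPM in PD-L1 antibody libraries, 151, 135 and 173 CPM with isotype and 147, 135 and 145 CPM untreated, log2 fold changes of 0.44 (SE 0.10, limma adjusted p = 0.00424) and 0.54 (limma adjusted p = 0.00104). Scaling by totals ended its call over isotype (0.27, limma adjusted p = 0.0597). The chaperonin pair Hspd1 (Hsp60) and Hspe1 (Hsp10), whose exons overlap by 112 bases, was not called. Hspd1 had 74.8, 75.3 and 70.8 CPM in PD-L1 antibody libraries, 66.0, 59.3 and 68.7 CPM with isotype and 58.5, 65.7 and 68.0 CPM untreated. Its PD-L1 antibody libraries were above the other 6, but the changes of 0.19 and 0.20 (SE 0.09) missed the threshold (limma adjusted p = 0.109 and 0.0797). Hspe1 had 34.2, 35.8 and 31.1 CPM in PD-L1 antibody libraries, 33.1, 30.3 and 31.4 CPM with isotype and 30.1, 34.8 and 36.5 CPM untreated, which overlapped (log2 fold change 0.09 over isotype, limma adjusted p = 0.503 over isotype and 0.986 over untreated wells). The 2 genes that share the promoter shown above with heat shock elements were both without a call. Hsph1, with the element after its start, was called higher in both comparisons. The search matched only 3 of the 29 genes with a promoter entry. Genes with an entry and no match included Hspa1a, Hspa1b and Dnajb1, called higher in both comparisons, and Hspa2 and Dnaja2, not called. Whether genes with and without a match differ was not tested.

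**Figure D3:**
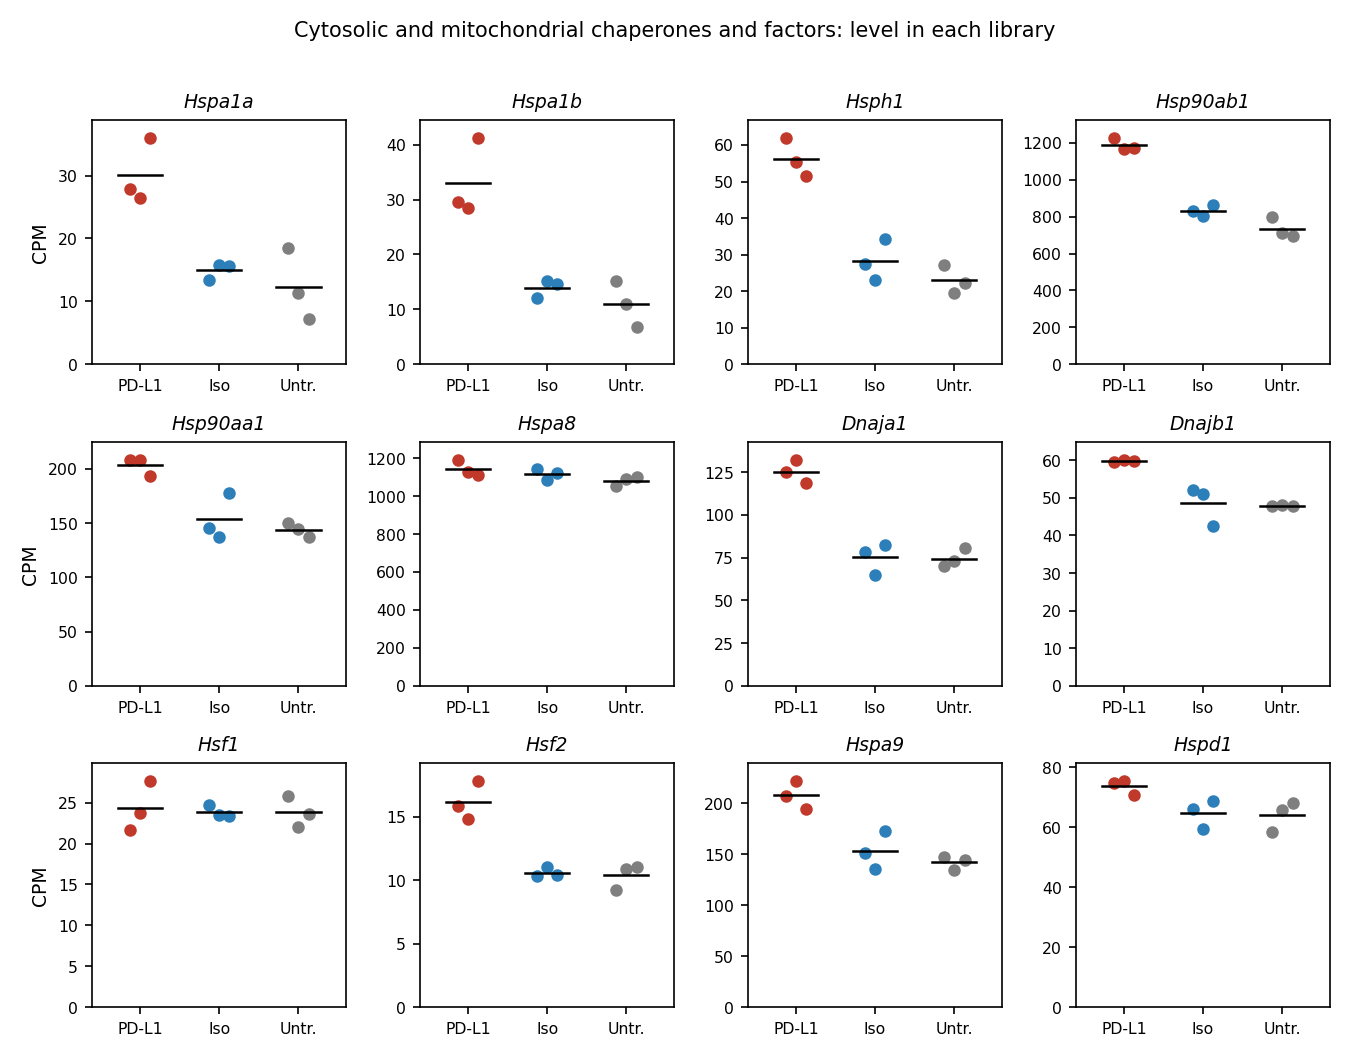
CPM in each library of 12 cytosolic, heat shock factor and mitochondrial genes, on linear axes from 0, with PD-L1 antibody, isotype and untreated libraries from left to right and the mean of 3 as a bar. Hspa1a, Hspa1b, Hsph1, Hsp90ab1 and Dnaja1 show wide gaps between the PD-L1 antibody libraries and the rest. Those of Hsf1 overlap both other groups, and those of Hspa8 overlap the isotype libraries only.

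Levels of different genes can be compared only per exonic length, here as TPM divided by the TMM factor. On that scale Hspa8 was at 1141 ± 32.7 with the PD-L1 antibody, 1154 ± 35.3 with isotype and 1074 ± 15.1 untreated (SD, n = 3 each). Hsp90ab1 followed at 995 ± 17.8 under the PD-L1 antibody, 720.5 ± 37.8 under isotype and 613 ± 66.9 untreated, and Hspa5 at 802 ± 10.6 under the PD-L1 antibody, 697 ± 31.0 under isotype and 633 ± 41.2 untreated. The inducible Hspa1a and Hspa1b were at 22.6 ± 3.90 and 24.7 ± 5.31 with the PD-L1 antibody, under both of these cytosolic genes, and Hspb1 was lowest at 0.713 ± 0.127. Summed over the 12 ER chaperones the level was 2096, 2174 and 2257 in PD-L1 antibody libraries, 1658, 1705 and 1765 with isotype and 1666, 1584 and 1628 untreated. Summed over the 16 cytosolic genes it was 2808, 2748 and 2708 in PD-L1 antibody libraries, 2362, 2287 and 2498 with isotype and 2273, 2082 and 2079 untreated. In both sums the lowest PD-L1 antibody library lay above the highest of the other 6. The 2 degradation genes together were at 140, 134 and 153 in PD-L1 antibody libraries, 165, 172 and 175 with isotype and 171, 147 and 146 untreated.

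**Figure D4:**
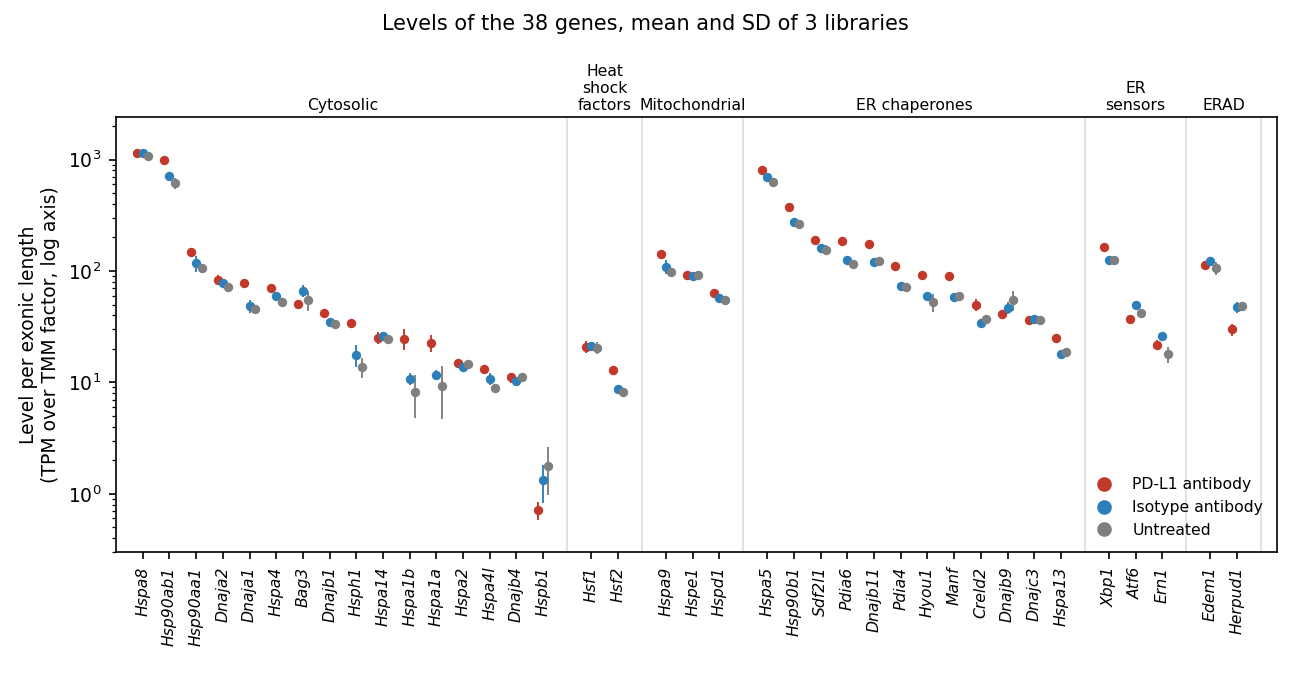
Level per exonic length of the 38 genes (TPM over TMM factor, log axis), mean and SD of 3 libraries for PD-L1 antibody, isotype and untreated groups, ordered within each compartment by the PD-L1 antibody mean. Hspa8, Hsp90ab1 and Hspa5 are the most abundant, and Hspb1 is the least.

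Other proteostasis genes, not among the 38, were read from 4 lists. Of 20 tested ER folding genes 11 were called higher and 3 lower over isotype (70% called, median 0.25), beside 36.4% of all tested genes. Over untreated wells 9 were higher and 3 lower (60%), beside 42.4% of all tested genes. Under scaling by totals 5 were higher and 3 lower over isotype, where 11.4% of all tested genes were higher and 30.2% lower, and 6 and 3 over untreated wells, where 14.1% were higher and 29.8% lower. Ero1l, the oxidase that recharges disulfide isomerases, had 98.2, 93.7 and 109 CPM in PD-L1 antibody libraries, 39.4, 38.8 and 46.5 CPM with isotype and 37.8, 37.7 and 39.6 CPM untreated, a log2 fold change of 1.25 over isotype (limma adjusted p = 2.07e-06). Dnajc1, an ER membrane J-domain protein, changed by 0.96 (1.97e-06 by limma) and P4hb, the founding disulfide isomerase, by 0.73 (4.61e-05), whereas the second oxidase gene Ero1lb changed by -0.43 (0.00129).

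Of 30 other cytosolic folding genes 10 were called higher and 2 lower in each comparison (40%). The median was 0.16 over isotype and 0.21 over untreated wells. The pooled share was near the 36.4% and 42.4% of all tested genes, but those were split near evenly by direction. Over isotype 18.2% of all tested genes were higher and 18.2% lower, and over untreated wells 22.0% and 20.5%. Under scaling by totals the list had 3 higher and 3 lower over isotype (all tested genes 11.4% and 30.2%). Over untreated wells it then had 5 and 3 (14.1% and 29.8%). Cct3 and Cct7, subunits of the TRiC chaperonin, changed by 0.59 and 0.35 over isotype (limma adjusted p = 0.000132 and 0.00174), Stip1, which couples Hsp70 to Hsp90, by 0.59 (0.000133) and the exchange factor Bag1 by 0.40 (0.00115). Of 11 mitochondrial genes 2 were higher and 1 lower over isotype (27.3%) and 3 and 1 over untreated wells (36.4%). With both directions pooled, these shares were under those of all tested genes. The counts became 0 and 1, and 1 and 2, under scaling by totals (0 and 1, and 1 and 1, by upper quartiles). By upper quartiles 15.2% of all tested genes were higher and 21.3% lower over isotype, and 17.5% and 25% over untreated wells. Grpel1, an exchange factor of Hspa9, changed by 0.30 over isotype (limma adjusted p = 0.033), the inner membrane protease Yme1l1 by 0.29 (0.0324), and Hscb, a co-chaperone of iron-sulfur cluster assembly, by -0.71 (0.00339). Of 14 degradation and sensor genes 3 were higher and 1 lower over isotype (28.6%, median -0.04) and 1 and 1 over untreated wells (14.3%). These pooled shares were again under those of all tested genes. The counts became 0 and 6, and 0 and 2, under scaling by totals (1 and 2, and 0 and 2, by upper quartiles). Derl2, Selenos and Derl1, components of the retrotranslocation machinery, changed by 0.34, 0.30 and 0.24 over isotype (limma adjusted p = 0.0113, 0.0384 and 0.0406), and Mbtps1, a protease that frees Atf6, by -0.25 (0.0344). Over untreated wells Derl2 was called higher (0.26, limma adjusted p = 0.0326), and Selenos, Derl1 and Mbtps1 were not called (limma adjusted p = 0.305, 0.372 and 0.578).

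**Figure D5:**
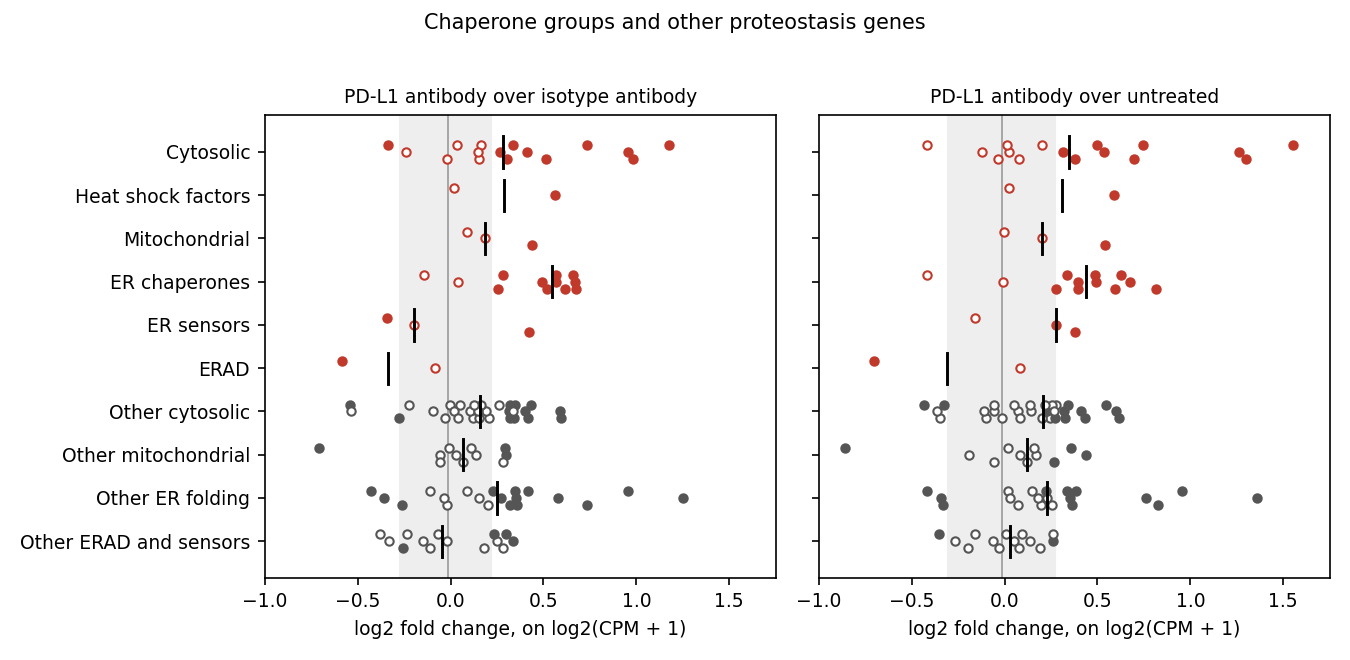
Log2 fold changes, on log2(CPM + 1), of the 38 genes by compartment (red) and of the other proteostasis lists (grey), filled where the limma adjusted p was under 0.05, with the median of each row as a bar. Left is PD-L1 antibody over isotype, right over untreated wells, and the shaded band holds the middle 50% of all tested genes (-0.27 to 0.22 over isotype). The ER chaperones have the highest median over isotype, 0.54, or 0.37 under scaling by totals.

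Markers of macrophages were present in every library: all 10 were tested, and their sum was 23506 to 27714 CPM in PD-L1 antibody libraries, 21003 to 24613 CPM with isotype and 18952 to 24988 CPM untreated. Much of that sum is Lyz2, at 9884 to 12340 CPM in PD-L1 antibody libraries, 11460 to 15140 CPM with isotype and 10060 to 14300 CPM untreated, and single markers differed in both directions. Adgre1 was at 4029 to 4157 CPM in PD-L1 antibody libraries, 1537 to 1872 CPM with isotype and 1475 to 1997 CPM untreated. Cd68 was at 725 to 828 CPM in PD-L1 antibody libraries, 1107 to 1213 CPM with isotype and 1164 to 1171 CPM untreated. Plasma cells are known for high levels of ER chaperones, and of the 6 B and plasma cell markers listed in the libraries 4 were tested. Their sum moved with the ER genes, at 662 to 739 CPM in PD-L1 antibody libraries, 208 to 286 CPM with isotype and 144 to 323 CPM untreated, but it is almost wholly Sdc1, which macrophages can also express. The plasma cell marker Mzb1 stayed at or under 0.888 CPM in every library, and Jchain was at 0.535 to 1.87 CPM in PD-L1 antibody libraries, 1.47 to 2.20 CPM with isotype and 2.23 to 8.39 CPM untreated. Neutrophil and precursor markers, 8 of 9 tested, summed to 353 to 496 CPM in PD-L1 antibody libraries, 679 to 1272 CPM with isotype and 511 to 709 CPM untreated, with Ly6g at or under 0.322 CPM. The part of these shifts in the chaperone results was not tested.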

How the data were processed

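Poly(A) RNA libraries, read as pairs of 150 bases, were processed by the authors with Partek and STAR, per the submitters' processing notes. Versions and the genome build are not given in the sources used here. The deposited read counts cover each RefSeq transcript's whole genomic span, introns and overlapping genes included, so they serve only as an alternative. Per the file headers, the deposited files also hold a signal, the average coverage of each transcript's exons, and the exon length. Exonic read equivalents were coverage times exon length divided by 150, for the transcript with most of them per symbol. After edgeR's filterByExpr (13741 genes of 22376), libraries were scaled by TMM, and log2(CPM + 1) of all 9 was fitted in limma with a trended variance, two-sided, Benjamini-Hochberg adjusted, threshold 0.05. CPM counts exonic read equivalents per 1e+06 over tested genes. Depth ran from 23554320 to 40116467 equivalents, and counting error limits low genes most.

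Positions matched RefSeq GRCm38.p6: of 21782 shared symbols 96.9% lay inside the gene. The 38 genes and all lists were chosen with earlier results of these data known. Values per library are given for the genes called over isotype, up to the 24 with the lowest p, and for a fixed set of main chaperones and sensors, and from each other list for the 2 to 4 lowest p. Alternatives were other scalings, filters, pseudocounts, tools (edgeR, DESeq2, limma-voom), transcripts, a threshold of 0.01, only the groups compared, and omission of single libraries. Software was R 4.3.3, limma 3.58.1, edgeR 4.0.16, DESeq2 1.42.0, Python 3.11.15 and pandas 2.3.3.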

Additional observations from a re-analysis of the deposited data

How the results depend on the processing

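No call among the 38 genes reversed under any of the 23 alternatives. Over isotype 25 genes were called, of which 16 were kept under every alternative, 9 were lost in at least 1 and 2 others were gained in at least 1. Over untreated wells 24 were called, 20 kept under every alternative, 4 lost and 5 gained in at least 1. Calls higher over isotype numbered 22, against 15 by totals, 19 by upper quartiles, 18 without a filter and 19 by edgeR on reads over gene spans. Calls lower in these alternatives were 4, 3, 2 and 3. Of all tested genes 11.4%, 15.2%, 9.42% and 11.2% were then higher, against 18.2% in the main fit. Lower were 30.2%, 21.3%, 9.87% and 13.5%, against 18.2%. Leaving out 1 library gave 19 to 22 higher and 2 to 3 lower. In those fits 13.7% to 21.3% of all tested genes were higher and 13.2% to 21.8% lower. Over untreated wells the 1 call lower became 3 by totals, 3 by upper quartiles and 3 with a filter of 5 CPM. It became 2 without a filter, 2 by edgeR and 2 by DESeq2 on exonic read equivalents. Of all tested genes 29.8%, 25%, 24.7%, 11.3%, 20.7% and 21.7% were then lower, against 20.5% in the main fit. Leaving out 1 library gave 1 to 2 lower and 21 to 23 higher. In those fits 15.5% to 23.8% of all tested genes were lower and 16.9% to 24.6% higher. The cause of these differences was not tested, except that totals shift all genes downward. For isotype over untreated, leaving out 1 library gave 0 to 4 higher and 0 to 1 lower, all from leaving out untreated 7, a fit that called 16.4% of all tested genes. The Xbp1 ratio kept its overlap between groups with the unspliced form as denominator. No paired analysis was possible because the groups share no replicate numbers (1 to 3, 4 to 6 and 7 to 9). Depth limits the lowest gene, Hspb1. With 3 libraries a group, small changes over isotype such as those of Hspa5 and Sdf2l1 sit near the threshold in the main limma fit.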
